A study of Mus musculus with 18 samples.

Results

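The 39 genes described here carry out the uptake, activation, mitochondrial import and oxidation of long-chain fatty acids, together with control genes of those steps. They were taken from a list of gene symbols that was chosen with earlier results of these data known. All 39 matched 1 Ensembl identifier each among the 30583 genes in the count table. All 39 passed the filter on low counts and were among the 16311 genes tested. RNA came from the left ventricle of 18 male C57BL/6JR mice aged 12 weeks, 3 in each of 6 groups, with 1 library per mouse. In the 5 groups with a myocardial infarction (MI), the left anterior descending coronary artery was tied for 10 min or for 1, 6, 24 or 72 h. Sham mice (0 h) underwent surgery too, with the suture passed but left untied, under sodium pentobarbital like the others, and all mice were given isoflurane before they were killed. No mouse carried a described mutation or transgene, and when the sham mice were killed is not given beyond 0 h. By its title, the series asks what happens over time after an infarction to transcripts and to methylation of DNA; the latter was not analysed here.

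A working heart takes most of its energy from fatty acids. Long-chain fatty acids, freed from circulating triglyceride by lipoprotein lipase, cross the cell membrane with the help of CD36, are carried by fatty acid binding proteins and are joined to coenzyme A by acyl-CoA synthetases. The carnitine shuttle then moves them into the mitochondrion, where each turn of beta-oxidation removes a 2-carbon unit through dehydrogenation, hydration, a further dehydrogenation and thiolysis, and electron transfer flavoprotein hands the electrons of the first step to the respiratory chain. Many of the genes are known targets of the nuclear receptor PPAR-alpha and its coactivator PGC-1alpha, and oxidation needs oxygen, which a blocked coronary artery does not deliver.

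Libraries held 18199172 to 25062351 counts, and the factors of the TMM scaling ran from 0.825 to 1.43, with the highest values, 1.36 to 1.43, at 72 h. Mitochondrial transcripts took 23.8% to 26.1% of counts in sham and 8.41% to 10.5% at 72 h, where the summed level of the 39 genes was also lowest. The part of this in their change was not tested. The labels give cardiomyocytes as the cell type beside myocardial tissue, and describe no separation of cells. The 10 cardiomyocyte markers (contractile and calcium handling genes such as Myh6) summed to 75444 ± 3030 CPM (counts scaled to a common library size after TMM normalization, SD, n = 3) in sham and to 20926 ± 3279 CPM at 72 h. Over the same groups the 8 fibroblast markers went from 852 ± 56.9 to 13970 ± 1875 CPM (range at 72 h 12453 to 16067), the 8 myeloid markers from 196 ± 11.9 to 3106 ± 422 CPM, and the 8 endothelial markers from 1403 ± 65.5 to 938 ± 116 CPM. The libraries were therefore read as whole tissue, in which fewer cells of a type and less RNA per cell cannot be told apart. The part of these markers in the results below was not tested. Replicate 1 at 24 h stood nearer to sham than the other 24 h libraries for many of the genes, and the median, the count of calls and the summed level of the 39 genes at 24 h are also given without it. Scaling by library totals in place of TMM moved the median of all genes to -0.12, 0.20 and 0.61 (log2) at 6, 24 and 72 h, and the share of all calls that were increases from 57.2% to 40.6%, from 54% to 75.5% and from 51.4% to 79.9%.

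In sham hearts the 39 genes differed widely in level, here given per kilobase of gene. Fabp3, the cytosolic fatty acid carrier of heart muscle, was highest at 4605 ± 180 CPM per kilobase (SD, n = 3). It was followed by the thiolase Acaa2 at 657 ± 41.6, the long-chain acyl-CoA dehydrogenase Acadl at 494 ± 25.8, the electron transfer flavoprotein subunit Etfa at 428 ± 25.6, the enoyl-CoA isomerase Eci1 at 369 ± 17.6 and the membrane transporter Cd36 at 367 ± 18.2 CPM per kilobase. Eci1 and Cd36 did not differ beyond their spread. At the other end stood Acad10 at 0.755 ± 0.0482 and Angptl4, a secreted inhibitor of lipoprotein lipase, at 0.446 ± 0.111 CPM per kilobase. For Cpt1a and Eci1 the gene length that the deposited values imply (4300 and 1091 bases) differs from the exon length in GENCODE M21 (7642 and 2127 bases), so their levels per kilobase depend on which length is used.

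The 39 genes showed few differences early, some increases at 6 h and mostly decreases later. Changes are edgeR log2 fold changes ± their standard error, against sham unless another time is named. At 10 min and 1 h most were within 0.3 (log2) of sham, 35 of 39 at each time. At 6 h 9 rose and the others did not pass the test. From 24 h to 72 h most fell, and 4 were higher than sham at 72 h. The median log2 fold change of the 39 genes against sham was 0.03, 0.06, 0.03, -0.56 and -1.71 at 10 min and 1, 6, 24 and 72 h, where the median of all genes tested was 0.01, -0.01, -0.01, 0.01 and 0.03. These 5 comparisons share the 3 sham libraries. In the test of any difference from sham, 38 of 39 were called (edgeR adjusted p under 0.05) where 78.4% of all genes tested were, and the gene not called was Cpt1a.

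**Figure D1:**
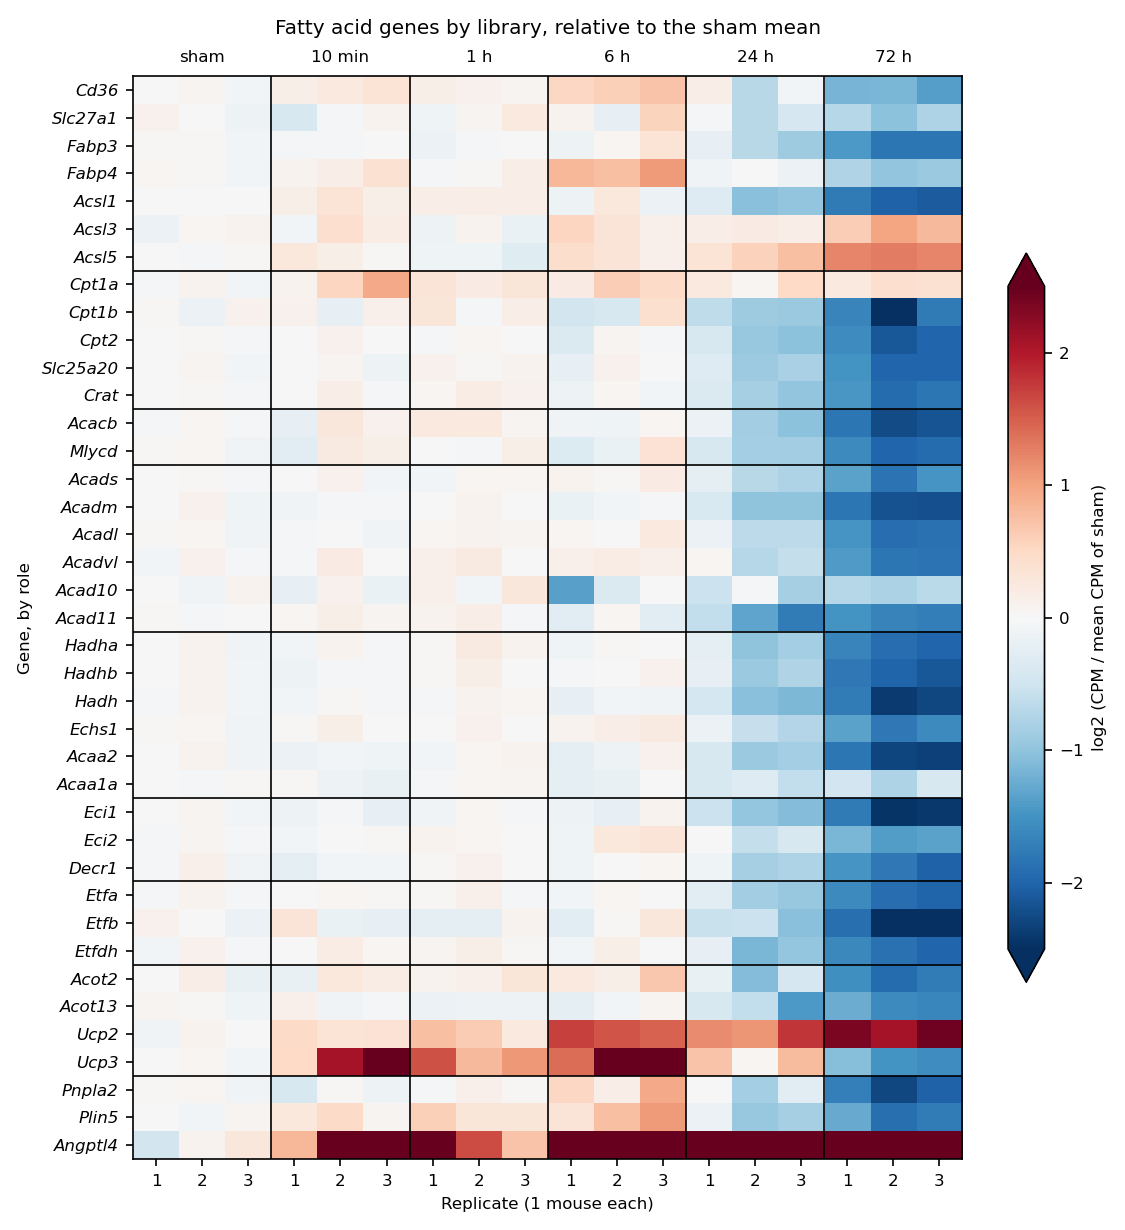
Each square is the log2 ratio of a gene's CPM in a library to its mean in the 3 sham libraries, with colours ending at 2.5 in either direction. Rows are the 39 genes in the order of their roles (uptake and activation, carnitine shuttle, malonyl-CoA control, acyl-CoA dehydrogenases, hydration to thiolysis, isomerases and reductase, electron transfer, thioesterases and uncoupling proteins, lipid droplet and lipase control), and columns are the 18 libraries. The 6 h libraries are red for a few rows, replicate 1 at 24 h is paler than the other 24 h libraries, and the 72 h libraries are blue in 34 rows.

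At 10 min no member was called by edgeR, where 0.0736% of all genes were called (0.0307% higher and 0.0429% lower), and none at 1 h, where 0.294% were (0.288% higher and 0.00613% lower). At an unadjusted p under 0.05 there were 4 members at 10 min (Cpt1a, Ucp2, Ucp3 and Angptl4) and 3 at 1 h (Ucp2, Ucp3 and Angptl4), all above sham. These are 10.3% and 7.69% of the members, where 7.01% and 5.51% of all genes were under that threshold. DESeq2 called 2 at 10 min, Ucp3 (adjusted p = 0.00351) and Angptl4 (adjusted p = 0.0304), and 0 at 1 h, and limma on log2 FPKM called 0 at both times. Ucp3, a mitochondrial carrier named for its likeness to the uncoupling protein of brown fat, had the smallest p at 10 min. It stood at 18.8, 19.2 and 17.7 CPM in sham replicates 1 to 3 and at 26.3, 79.03 and 148 CPM at 10 min, so that the 10 min mice spread from near sham to several times above it (log2 2.18 ± 0.49, edgeR adjusted p = 0.215). Angptl4 was spread in the same order, with 1.06, 1.56 and 1.78 CPM in sham and 2.62, 13.6 and 34.3 CPM at 10 min (log2 3.51 ± 1.16, edgeR adjusted p = 0.499). Cpt1a was at 41.8, 45.5 and 40.6 CPM in sham and 45.3, 61.7 and 81.7 CPM at 10 min, where replicate 1 lay within the sham range. All 3 genes were highest in replicate 3 and lowest in replicate 1 at this time. Ucp2 had the smallest p at 1 h, with 35.1, 39.8 and 37.6 CPM in sham and 63.3, 58.2 and 44.5 CPM at 1 h, above every sham library (log2 0.56 ± 0.16, edgeR adjusted p = 0.323). It was called at 1 h when replicate 3 of the 24 h group was left out of the fit (edgeR adjusted p = 0.035). Between 10 min and 1 h edgeR, DESeq2 and limma called 0 members, 1 had an unadjusted p under 0.05 (Acsl5), and 0.307% of all genes were called (0.251% higher and 0.0552% lower). Fitting only the groups compared called Ucp2 at 10 min (edgeR adjusted p = 0.0112) and Plin5 at 1 h (edgeR adjusted p = 0.0176).

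At 6 h 9 of the 39 genes were higher than sham and none was lower, where 28.4% of all genes tested were called, 16.3% higher and 12.2% lower. No member was below sham at an unadjusted p under 0.05 either, and DESeq2 and limma also called 0 lower. The genes that rose belong to uptake (Cd36, Fabp4), activation (Acsl5), import (Cpt1a), the uncoupling protein family (Ucp2, Ucp3) and the control of stored and circulating triglyceride (Pnpla2, Plin5, Angptl4). The enzymes of the oxidation cycle were not among them. The 18 genes from acyl-CoA dehydrogenases to electron transfer proteins lay between -0.46 (Acad10) and 0.18 (Eci2) on the log2 scale, and none was called. These 18 include the peroxisomal thiolase Acaa1a. Between 1 h and 6 h Cd36, Fabp4, Acsl5, Ucp2 and Angptl4 rose, 5 of 39, and 0 fell, where 24.5% of all genes were called, 14.5% higher and 10% lower. The call for Cd36 between these times was lost without any 1 of the 1 h libraries and without replicate 3 at 6 h. Acad10 alone was lower at an unadjusted p under 0.05, and DESeq2 and limma called 0 lower.

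Angptl4 (chr17:33773750-33781830, GRCm38, minus strand) had the largest log2 fold change of the 39 genes at 6 h. Its 6 h libraries held 110.1, 75.9 and 169 CPM against 1.06, 1.56 and 1.78 CPM in sham (log2 6.32 ± 1.17, edgeR adjusted p = 0.00174). Every 6 h library lay above every sham, 10 min and 1 h library. The 1 h libraries, at 20.9, 4.56 and 2.39 CPM, differed widely among themselves, and the rise from 1 h to 6 h (log2 3.64 ± 0.96, edgeR adjusted p = 0.0157) was no longer called without replicate 2 or without replicate 3 at 1 h.

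Ucp3 and Ucp2, which lie next to each other on chromosome 7, both rose. Ucp3 reached 49.1, 104 and 105 CPM (log2 2.21 ± 0.49, edgeR adjusted p = 0.00487), with replicate 1 at less than the level of the others, and Ucp2 reached 122, 111 and 104 CPM (log2 1.58 ± 0.16, edgeR adjusted p = 3.86e-06). Cd36, which binds long-chain fatty acids at the surface of muscle, endothelial and fat cells, went from 1310.2, 1384 and 1254 CPM in sham to 1882, 1988 and 2155 CPM (log2 0.61 ± 0.15, edgeR adjusted p = 0.00642). Fabp4, a carrier known from fat cells, capillary endothelium and macrophages, went from 703, 693 and 655 to 1223, 1159 and 1435 CPM (log2 0.90 ± 0.11, edgeR adjusted p = 2.08e-05). In each of these 4 genes all 6 h libraries lay above all sham libraries. Of the 8 adipocyte markers, Adipoq, Plin1, Lep, Cidec, Retn and Ucp1 stayed under 0.5 CPM in every library, Cfd reached 2.01 CPM in replicate 2 at 6 h, and Cidea held most of the sum, which was 29.9 ± 0.966 CPM in sham and 34.4 ± 4.32 CPM at 6 h (range 29.9 to 38.5). The endothelial markers summed to 1403 ± 65.5 CPM in sham and 1600 ± 242 CPM at 6 h (range 1368 to 1851), with 2 of 8 called higher and 2 lower. The myeloid markers summed to 357 ± 174 CPM at 6 h (range 197 to 542).

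Genes of the lipid droplet also rose. Plin5, a droplet coat protein that tethers droplets to mitochondria in oxidative tissue, had 119.6, 116 and 128 CPM in sham and 151, 203 and 255 CPM at 6 h (log2 0.74 ± 0.22, edgeR adjusted p = 0.0173). Pnpla2, the adipose triglyceride lipase that starts the breakdown of droplet triglyceride, had 389, 395 and 360.2 CPM in sham and 543, 431 and 733 CPM at 6 h (log2 0.58 ± 0.20, edgeR adjusted p = 0.0431). Cpt1a rose from 41.8, 45.5 and 40.6 to 48.9, 64.97 and 59.5 CPM (log2 0.44 ± 0.16, edgeR adjusted p = 0.0489) and Acsl5 from 19.7, 19.6 and 20.3 to 26.9, 24.8 and 21.6 CPM (log2 0.30 ± 0.11, edgeR adjusted p = 0.0475). Replicate 1 was the lowest 6 h library for Plin5 and Cpt1a, replicate 2 for Pnpla2 and replicate 3 for Acsl5. Of 27 alternative analyses, the call at 6 h was lost in 20 for Acsl5, 17 for Cpt1a, 15 for Pnpla2 and 4 for Plin5, and in 0 for Angptl4, Ucp3, Ucp2, Fabp4 and Cd36. The count fell from 9 to 5 without sham replicate 1 or without sham replicate 2, and to 5 with no filter on low counts.

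**Figure D2:**
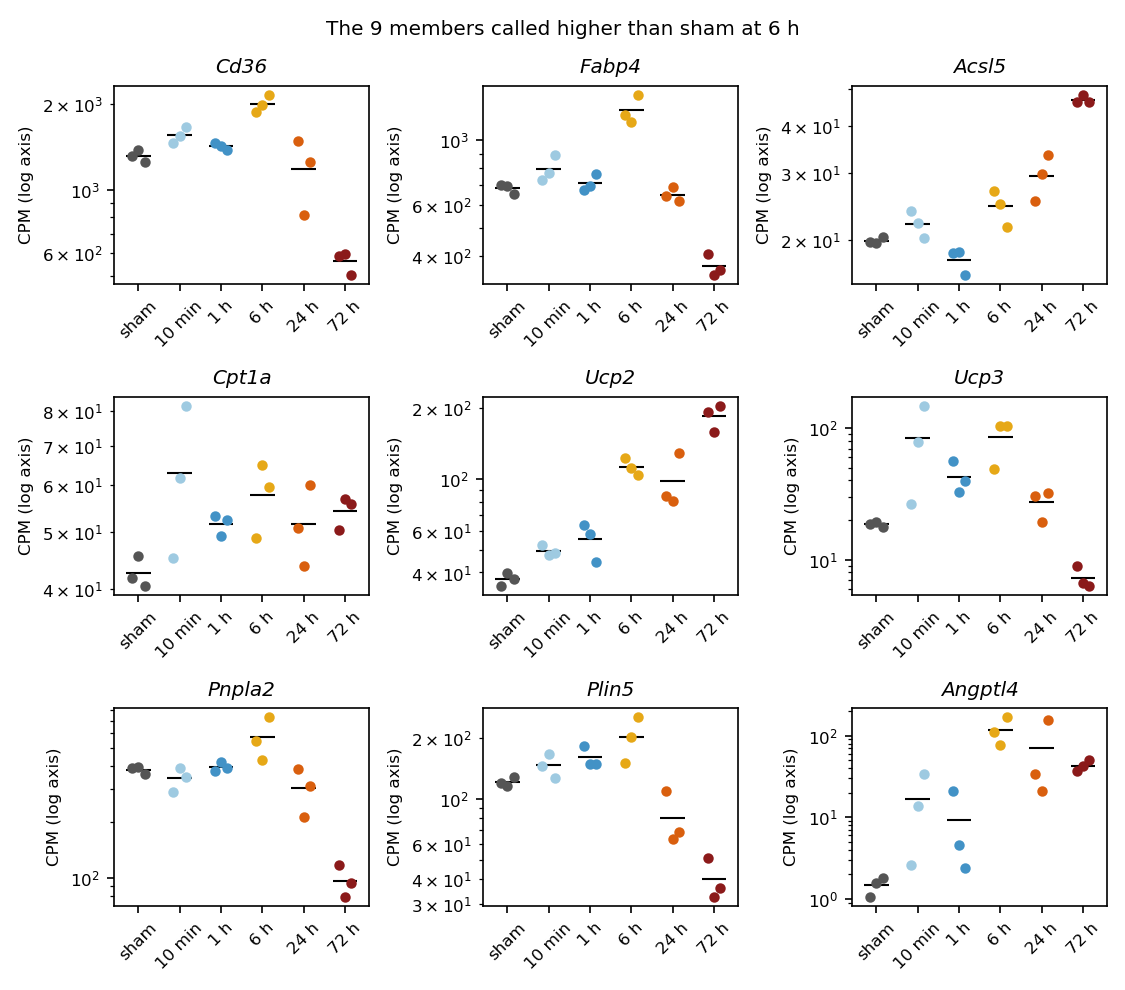
CPM of the 9 genes called higher than sham at 6 h, on log axes, by group; each point is a library (1 mouse) and each bar the group mean. Angptl4 and Ucp3 spread widely among the 10 min mice, and at 72 h Cd36, Fabp4, Ucp3, Pnpla2 and Plin5 lie below sham while Ucp2, Acsl5 and Angptl4 lie above it.

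Promoter sequences were available for 32 of the 39 genes, 250 bases before to 50 bases after each annotated start, from RefSeq (GRCm38.p6). The direct repeat DR1, bound by PPAR with its partner RXR, was searched in a form that allows any base at the spacer and at the fourth place of each repeat, and was found on either strand in 0 of the 32 and in 0.381% of the 32851 promoters in the table. The element TNAAGGTCA, bound by estrogen-related receptors, was found in 0 of the 32 and in 1.28% of all promoters, and the core of the hypoxia response element, ACGTG, in 3 of the 32 (Slc27a1, Acacb and Acadvl) and in 19.6% of all. The shorter element AGGTCA, the end of TNAAGGTCA and one form of a DR1 repeat, was added after the data were seen and was present in 8 of the 32 (25%) and in 16.3% of all promoters. For every element a gene counted if any of its promoters held it, while the share of all promoters is over single promoters. The shares of genes and of promoters are therefore not like for like. Of the 7 genes that rose at 6 h and had a promoter sequence, 4 held AGGTCA. The other members that held it, Acacb, Acadm, Acadvl and Echs1, were not called at 6 h. The 250 bases before a start site of the 4 are shown because these genes were called higher at 6 h. Each is given 5′ to 3′ on the strand of its gene, with the element or its reverse complement in capitals.
Cd36 chr5:17835897-17836146 (- strand): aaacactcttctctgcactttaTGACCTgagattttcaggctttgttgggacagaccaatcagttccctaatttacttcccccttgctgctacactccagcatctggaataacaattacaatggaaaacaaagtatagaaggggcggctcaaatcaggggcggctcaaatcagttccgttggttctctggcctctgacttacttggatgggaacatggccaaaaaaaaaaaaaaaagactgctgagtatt
Ucp3 chr7:100472741-100472990 (+ strand): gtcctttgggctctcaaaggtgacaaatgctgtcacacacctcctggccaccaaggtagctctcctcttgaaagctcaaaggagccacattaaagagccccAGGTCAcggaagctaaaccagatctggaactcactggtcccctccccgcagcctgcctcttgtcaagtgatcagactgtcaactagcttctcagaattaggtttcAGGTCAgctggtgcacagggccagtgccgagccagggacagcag
Plin5 chr17:56117549-56117798 (- strand): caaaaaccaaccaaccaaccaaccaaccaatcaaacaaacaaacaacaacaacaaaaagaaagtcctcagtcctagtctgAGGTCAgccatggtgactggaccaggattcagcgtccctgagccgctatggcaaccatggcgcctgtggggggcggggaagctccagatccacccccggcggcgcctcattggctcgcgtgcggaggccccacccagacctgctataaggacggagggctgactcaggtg
Cpt1a chr19:3323051-3323300 (+ strand): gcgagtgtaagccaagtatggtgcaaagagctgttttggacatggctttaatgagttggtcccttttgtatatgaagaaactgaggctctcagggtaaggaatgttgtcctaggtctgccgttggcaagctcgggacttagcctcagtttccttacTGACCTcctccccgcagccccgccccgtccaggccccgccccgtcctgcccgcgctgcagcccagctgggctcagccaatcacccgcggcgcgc
The first capital base lies 228 bases before the start site in Cd36, 149 and 44 bases before it in Ucp3, 170 bases before it in Plin5 and 94 bases before it in Cpt1a. A match describes the letters and is not evidence of binding.

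At 24 h 26 of the 39 genes were lower than sham and 3 were higher, where 43.8% of all genes tested were called, 20.2% lower and 23.7% higher. The summed CPM of the 39 genes was 69.0% ± 16.1 of the sham mean (SD, n = 3), with 87.5% in replicate 1 and 58.4% and 61.0% in replicates 2 and 3. Acad11, an acyl-CoA dehydrogenase of long substrates, fell furthest, from 109, 106 and 107 CPM in sham to 70.4, 42.9 and 31.97 CPM (log2 -1.15 ± 0.19, edgeR adjusted p = 1.73e-04). Eci1, which shifts the double bond of unsaturated fatty acids, went from 399, 423 and 385 to 279, 206 and 189.7 CPM (log2 -0.84 ± 0.16, edgeR adjusted p = 4.54e-04). Hadh, the short-chain 3-hydroxyacyl-CoA dehydrogenase, went from 620.5, 679.7 and 609.9 to 472, 309 and 294 CPM (log2 -0.83 ± 0.16, edgeR adjusted p = 5.93e-04). All 3 lay below every sham library, with replicate 1 the highest of the 24 h libraries. Without replicate 1 the median of the 39 genes was -0.77 in place of -0.56 and 32 were called in place of 29; the summed level was then 59.7% of sham. Without replicate 3 the median was -0.46 and 24 were called. The calls of Plin5 and Acot2 at 24 h were lost without sham replicate 1 or 2 and without replicate 2 or 3 at 24 h. That of Plin5 was also lost without sham replicate 3, and that of Acot2 without replicate 3 at 72 h. Decr1 lost its call without sham replicate 2 and without replicate 2 or 3 at 24 h. Acacb and Etfb lost theirs without replicate 3 at 24 h.

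The 3 genes above sham at 24 h were Angptl4, Ucp2 and Acsl5. Angptl4 held 34.3, 20.9 and 154 CPM (log2 5.55 ± 1.15, edgeR adjusted p = 0.00204), with replicate 3 several times above the others. Ucp2 held 84.5, 80.4 and 129 CPM (log2 1.38 ± 0.16, edgeR adjusted p = 6.13e-06), again highest in replicate 3. Acsl5 held 25.2, 29.7 and 33.6 CPM (log2 0.57 ± 0.11, edgeR adjusted p = 4.52e-04). The 3 genes stayed called under every alternative tried at 24 h. The 10 genes not called at 24 h were Cd36, Slc27a1, Fabp4, Acsl3, Cpt1a, Acadvl, Acad10, Eci2, Ucp3 and Pnpla2, of which Cd36, Fabp4, Cpt1a, Ucp3 and Pnpla2 had risen at 6 h.

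Between 6 h and 24 h 33 of the 39 genes fell and 0 rose, where 27.8% of all genes tested were called, 13.7% lower and 14.2% higher. The 6 genes without a call were Acsl3, Acsl5, Cpt1a, Acad10, Ucp2 and Angptl4. Acsl5 was higher at 24 h than at 6 h at an unadjusted p under 0.05 (log2 0.27 ± 0.11, edgeR adjusted p = 0.0677), DESeq2 called 0 higher and limma called 1. The count of 33 varied with the analysis: with only the 6 h and 24 h libraries in the fit, 4 were called (Fabp4, Eci1, Ucp3 and Plin5, all lower), library total scaling called 23 (22 lower), and limma called 19 on log2(FPKM + 1) and 22 on log2(FPKM + 0.1). The largest decreases were in Ucp3 (log2 -1.66 ± 0.48, edgeR adjusted p = 0.0203) and Plin5 (log2 -1.34 ± 0.22, edgeR adjusted p = 4.65e-04).

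At 72 h 34 of the 39 genes were lower than sham, 4 were higher and Cpt1a was not called (though 9 of 27 alternatives called it higher), where 66.4% of all genes tested were called, 32.2% lower and 34.2% higher. The summed CPM of the 39 genes was 32.1% ± 4.19 of the sham mean, with 36.9%, 29.7% and 29.6% in replicates 1 to 3. Between 24 h and 72 h 32 fell and 3 (Acsl3, Acsl5 and Ucp2) rose, where 50.5% of all genes tested were called, 26.1% lower and 24.4% higher. Scaled by library totals, 30 genes were lower than sham at 72 h and 5 higher, against 20 and 4 at 24 h and 0 and 6 at 6 h. Slc27a1, Acad10, Ucp3 and Acaa1a were the genes whose decrease at 72 h was lost under that scaling, and Acaa1a then stood at 0.04 above sham on the log2 scale (edgeR adjusted p = 0.772).

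**Figure D3:**
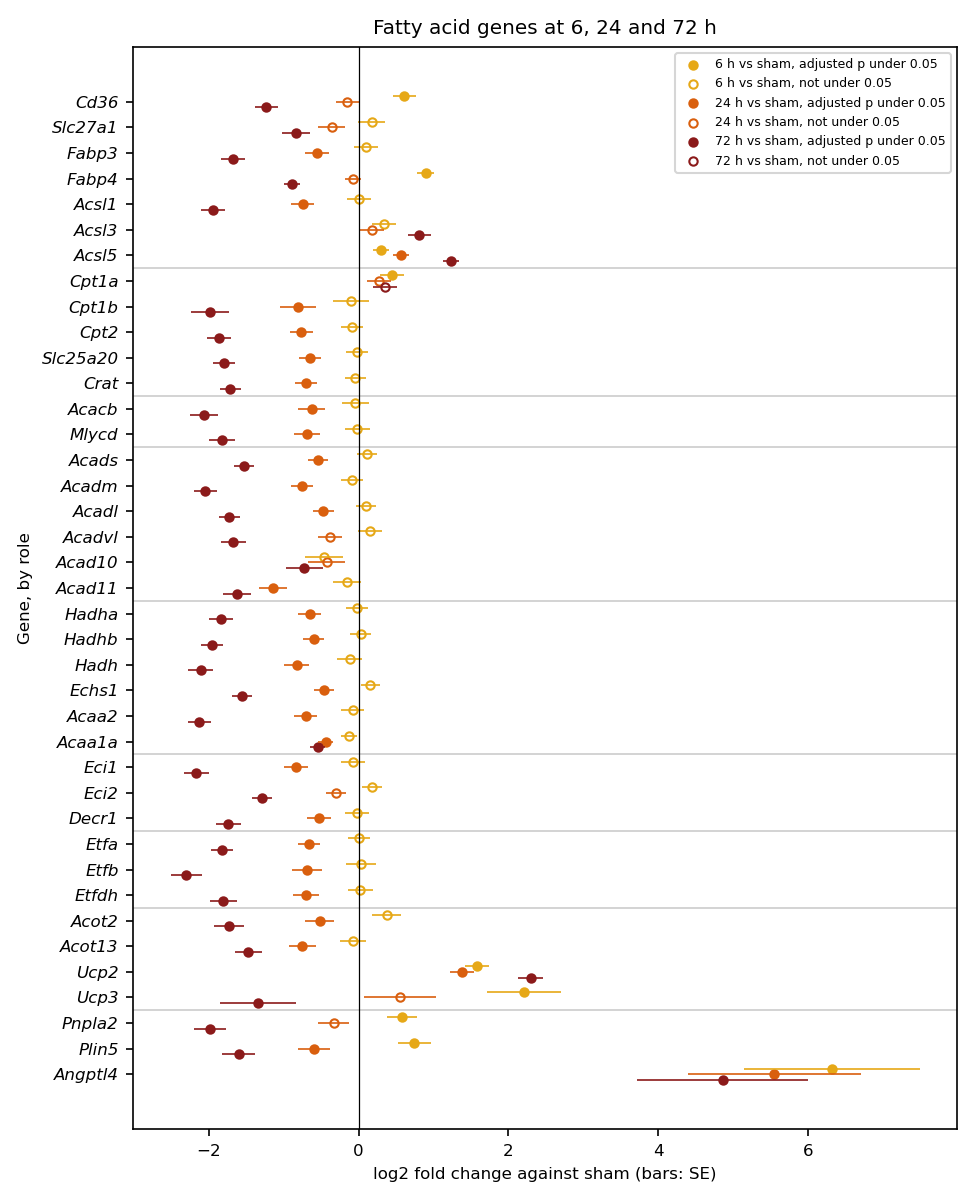
Log2 fold change against sham of each of the 39 genes at 6, 24 and 72 h, with bars of 1 standard error; filled points have an edgeR adjusted p under 0.05. Most genes of the oxidation steps lie near 0 at 6 h, left of 0 at 24 h and further left at 72 h, and Angptl4, Ucp2, Acsl5 and Acsl3 lie right of 0 at 72 h.

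Uptake and activation genes divided. The transporter Slc27a1 fell (log2 -0.84 ± 0.18, edgeR adjusted p = 6.86e-04), and Cd36 fell to 585, 593 and 504 CPM (log2 -1.23 ± 0.15, edgeR adjusted p = 1.33e-06). Fabp4 fell to 405, 344 and 358 CPM (log2 -0.89 ± 0.11, edgeR adjusted p = 1.11e-06) and Fabp3 from 3888, 3861 and 3619.6 CPM in sham to 1396, 1085 and 1079 CPM (log2 -1.67 ± 0.16, edgeR adjusted p = 5.32e-08). The abundant heart synthetase Acsl1 went from 748, 753 and 746 CPM in sham through 597, 363 and 377 CPM at 24 h to 221, 185 and 178 CPM at 72 h (log2 -1.94 ± 0.16, edgeR adjusted p = 1.01e-08). The 3 sham libraries lay above every 24 h library, and these above every 72 h library. Its paralogs moved the other way. Acsl5 rose to 46.1, 48.2 and 46.3 CPM (log2 1.24 ± 0.11, edgeR adjusted p = 1.39e-08), and Acsl3, a synthetase of the endoplasmic reticulum and lipid droplets, rose from 4.50, 5.19 and 5.29 to 7.63, 9.93 and 8.75 CPM (log2 0.81 ± 0.16, edgeR adjusted p = 1.51e-04).

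In the carnitine shuttle, 4 of 5 genes fell at 24 h and at 72 h: Cpt1b, Cpt2, the carnitine carrier Slc25a20 and the carnitine acetyltransferase Crat, to between 25.2% (Cpt1b) and 30.5% (Crat) of the sham mean at 72 h. Cpt1b, the muscle form of the outer membrane acyltransferase, had 10.4, 9.13 and 10.9 CPM in sham and 3.25, 1.43 and 2.99 CPM at 72 h (log2 -1.99 ± 0.25, edgeR adjusted p = 1.86e-06). Of its exonic bases 81.4% also belong to Gm44502, an overlapping gene model on the same strand, so its low level may not be that of the transcript, and its ratio to Cpt1a is not read here. Cpt1a, the form known from liver, held 50.8, 43.8 and 60.02 CPM at 24 h and 50.3, 56.8 and 55.8 CPM at 72 h (log2 0.35 ± 0.16, edgeR adjusted p = 0.0623), above every sham library at 72 h but not called. It was called higher in 9 of 27 alternatives (adjusted p from 1.28e-04 to 0.157 over all 27). These were 7 of the 9 that do not leave out a single library, among them DESeq2 and both limma tests, and the fits without replicate 1 or replicate 3 at 10 min. Acacb, whose product malonyl-CoA blocks the shuttle's entry step, and Mlycd, which removes malonyl-CoA, fell together at 24 h (log2 -0.63 and -0.69) and at 72 h (log2 -2.06 ± 0.19, edgeR adjusted p = 3.01e-08, and -1.83 ± 0.18, edgeR adjusted p = 7.45e-08).

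Every gene of the oxidation cycle was lower at 72 h. Of the 6 acyl-CoA dehydrogenases, which take the first pair of hydrogens from chains of different length, 4 fell at 24 h and all 6 at 72 h, with Acadm, the medium-chain enzyme, at 24.2% of the sham mean (log2 -2.05 ± 0.15, edgeR adjusted p = 2.12e-09) and Acad10 at 60.6% (log2 -0.72 ± 0.25, edgeR adjusted p = 0.0156). Acads, Acadl, Acadvl and Acad11 kept between 30.2% (Acadl) and 34.5% (Acads). Of Acadvl's exonic bases 42.9% overlap Dvl2 on the opposite strand, and whether the counting used strand is not given in the sources used here. All 6 genes of hydration to thiolysis fell at 24 h and at 72 h. Acaa2, which cleaves off acetyl-CoA, went from 993, 1059 and 933 CPM in sham through 754, 522 and 549 CPM at 24 h to 283, 202 and 198 CPM at 72 h (log2 -2.13 ± 0.16, edgeR adjusted p = 1.85e-09). Hadh went to 189, 122 and 132 CPM (log2 -2.11 ± 0.17, edgeR adjusted p = 5.21e-09), Echs1, the short-chain hydratase, to 33.9% of the sham mean (log2 -1.56 ± 0.13, edgeR adjusted p = 1.29e-08). Acaa1a, the peroxisomal thiolase, kept 68.4% of the sham mean at 72 h (log2 -0.55 ± 0.10, edgeR adjusted p = 1.34e-04) and was the member with the smallest decrease.

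Hadha and Hadhb encode the subunits of the mitochondrial trifunctional protein. In GENCODE M21 they lie head to head on chromosome 5, and the 85 bases between them are shown because both genes are read outward from this stretch; the capitals mark GGGCGG, the core of the GC box.
Hadha to Hadhb chr5:30155163-30155247 (+ strand): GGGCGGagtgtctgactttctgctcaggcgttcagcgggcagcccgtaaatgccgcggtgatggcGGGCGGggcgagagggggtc
The capitals occur at 2 places. The ratio of Hadha to Hadhb CPM stayed between 1.01 and 1.19 over the 18 libraries, with 1.07 ± 0.0092 in sham and 1.17 ± 0.0189 at 72 h (SD, n = 3). Hadha fell to 498, 423 and 398 CPM at 72 h from 1566, 1679.7 and 1477 CPM in sham (log2 -1.84 ± 0.16, edgeR adjusted p = 1.11e-08), and Hadhb to 427, 368 and 336 CPM from 1454, 1556 and 1390.2 CPM (log2 -1.96 ± 0.15, edgeR adjusted p = 2.82e-09).

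Of the isomerases and reductase that prepare unsaturated chains, Eci1 and Decr1 fell at 24 h and Eci1, Eci2 and Decr1 at 72 h. Eci1 reached 118, 73.7 and 76.1 CPM at 72 h (log2 -2.17 ± 0.17, edgeR adjusted p = 3.01e-09), and Decr1 and Eci2 stood at 29.9% and 41.0% of the sham mean. All 3 electron transfer genes fell at 24 h and 72 h. Etfb showed the largest decrease of the 39 genes at 72 h, from 138, 129 and 116 CPM in sham through 87.1, 88.4 and 61.6 CPM at 24 h to 34.4, 20.4 and 22.8 CPM (log2 -2.30 ± 0.21, edgeR adjusted p = 6.70e-08). Of its exonic bases 58.3% are shared with Gm45233 and Mir7051 on the same strand, so its level is uncertain. Its partner subunit Etfa fell to 28.2% of the sham mean (log2 -1.83 ± 0.15, edgeR adjusted p = 6.90e-09), and Etfdh, which passes the electrons on to ubiquinone, to 28.6% (log2 -1.81 ± 0.18, edgeR adjusted p = 6.15e-08).

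The thioesterases Acot2 and Acot13, which split acyl-CoA back into fatty acid, fell at 24 h (log2 -0.52 and -0.75) and at 72 h (log2 -1.73 and -1.48). Acot2 is a near-identical neighbour of Acot1, and reads may not be assigned to the right copy. Pnpla2 fell to 117, 79.01 and 93.7 CPM at 72 h (log2 -1.98 ± 0.21, edgeR adjusted p = 2.93e-07) and Plin5 to 50.8, 32.8 and 36.1 CPM (log2 -1.60 ± 0.22, edgeR adjusted p = 8.46e-06). Angptl4 held 36.7, 42.4 and 50.02 CPM at 72 h, within the range of the 24 h libraries and above every sham library (log2 4.86 ± 1.14, edgeR adjusted p = 0.0021).

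The uncoupling proteins parted. Ucp2, which is widely expressed, including in macrophages, rose to 192, 158 and 204 CPM at 72 h (log2 2.30 ± 0.16, edgeR adjusted p = 1.72e-09), above every library of every other group. Ucp3, known from muscle, fell to 8.93, 6.64 and 6.33 CPM (log2 -1.35 ± 0.51, edgeR adjusted p = 0.0307), below every other library. The call for Ucp3 at 72 h was lost in 9 of 27 alternatives, among them those without sham replicate 1, 2 or 3 and without replicate 2 or 3 at 72 h (log2 change between -1.52 and -0.62 over all 27). Per kilobase, the ratio of Ucp2 to Ucp3 was 0.906 ± 0.0605 in sham, 0.68 ± 0.376 at 6 h, 1.64 ± 0.344 at 24 h and 11.6 ± 2.52 at 72 h (SD, n = 3). Acsl5 stood to Acsl1 as 0.0572 ± 0.00139 in sham, 0.153 ± 0.0544 at 24 h and 0.524 ± 0.0653 at 72 h, so Acsl1 remained the higher of the pair. For Fabp4 over Fabp3 the sham ratio of 0.0331 ± 0.000127 compares with 0.0579 ± 0.00567 at 6 h and 0.0573 ± 0.00382 at 72 h. Each of the 3 ratios at 72 h lay outside the sham range, with an exact permutation p of 0.1 (two-sided), the smallest that 3 against 3 allows, among 20 such comparisons of 4 ratios with sham (Benjamini-Hochberg adjusted p = 0.143). Over sham and 72 h the myeloid marker sum went from 196 to 3106 CPM and the fibroblast marker sum from 852 to 13970 CPM. Between 6 h and 24 h the myeloid sum went from 182% ± 88.7 to 333% ± 117 of the sham mean (SD, n = 3). Ucp2 went from 300% to 261% of its sham mean between these times, and Acsl5 from 123% to 148%. The part of either marker sum in the rise of Ucp2 and Acsl5 was not tested.

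**Figure D4:**
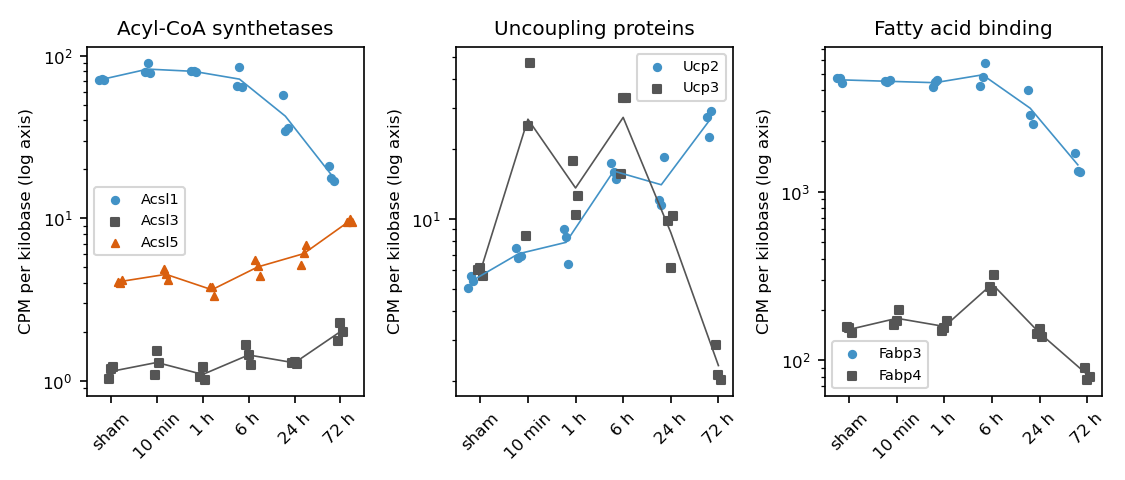
CPM per kilobase on log axes for the acyl-CoA synthetases Acsl1, Acsl3 and Acsl5, the uncoupling proteins Ucp2 and Ucp3, and the carriers Fabp3 and Fabp4; points are libraries and lines join group means. Ucp2 and Ucp3 lie close together in sham and apart at 72 h, where their ratio is 11.6, and Acsl1 and Acsl5 approach each other.

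The cardiomyocyte markers fell over the same times as the fatty acid genes. At 72 h the median log2 fold change was -1.71 for the 39 genes and -2.00 for the 10 markers, all of which were called lower. The summed markers stood at 57.9% ± 13.0 of the sham mean at 24 h (53.3% without replicate 1) and 27.7% ± 4.35 at 72 h. Within each library the 39 genes summed to 25.2% to 27.7% of the markers in sham, 30.8% to 31.1% at 6 h, 24.1% to 37.3% at 24 h and 29.7% to 31.7% at 72 h, so the 6 h and 72 h ranges lay above the sham range. From the deposited FPKM, which are per length, the same ratio was 40.4% to 44.4% in sham and 44.01% to 46.95% at 72 h, and these ranges overlapped. By role, no test compares these ratios. At 72 h uptake and activation genes took 11.2% to 12.6% of the markers against 8.74% to 9.21% in sham, carnitine shuttle genes 1.504% to 1.54% against 1.20% to 1.30%, and thioesterases and uncoupling proteins 1.31% to 1.57% against 0.456% to 0.497%. Lipid droplet and lipase genes took 0.827% to 0.924% against 0.648% to 0.684%. Single genes within these roles differed. Angptl4 stood at 2936% of its sham mean at 72 h, and Pnpla2 and Plin5 at 25.3% and 33.0%. Cpt1a stood at 127.5%, and the other carnitine shuttle genes at 25.2% (Cpt1b) to 30.5% (Crat). The ratios of these roles without Angptl4 or without Cpt1a are not given. The other genes of both roles stood at 25.2% to 33.0% of their sham means, near the 27.7% of the summed markers. The higher ratios of these roles are therefore not read as shared by their genes. Ucp2 stood at 492% of its sham mean and Acot2, Acot13 and Ucp3 at 30.05% to 39.3%. Without Ucp2, left out after its values were seen, the sum of these 3 was 0.525% to 0.55% of the markers against 0.404% to 0.444% in sham. The acyl-CoA dehydrogenases took 4.21% to 4.34% against 3.97% to 4.47%, the genes of hydration to thiolysis 6.36% to 6.76% against 6.43% to 7.21%, the isomerases and reductase 1.34% to 1.504% against 1.33% to 1.52%, and the electron transfer genes 1.88% to 2.102% against 1.85% to 2.14%, all of them overlapping sham. The malonyl-CoA genes lay lower, at 0.559% to 0.564% against 0.591% to 0.65%.

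**Figure D5:**
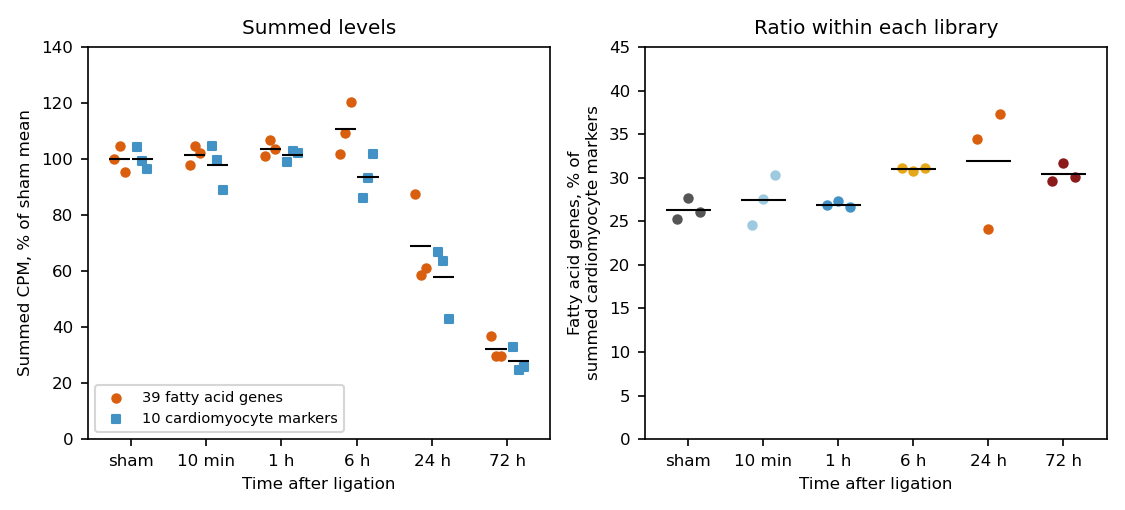
Left, summed CPM of the 39 fatty acid genes and of the 10 cardiomyocyte markers in each library, as a percentage of the sham mean, with bars at group means; right, the 39 genes as a percentage of the markers within each library. Both sums fall at 24 h and 72 h, to means of 32.1% and 27.7%, while the ratio stays between 24.1% and 37.3% in every library.

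A list of 42 further genes of fatty acid handling gave the wider pathway. At 6 h 9 rose and 4 fell (21.4% and 9.52%, where 16.3% and 12.2% of all genes did). At 24 h 6 rose and 17 fell (14.3% and 40.5%, against 23.7% and 20.2%). At 72 h 8 rose and 27 fell (19% and 64.3%, against 34.2% and 32.2%), with a median log2 fold change of -1.06 at 72 h. Among the largest decreases at 72 h were those of Dgat2, which makes triglyceride (log2 -2.87 ± 0.19, edgeR adjusted p = 8.09e-10), and the dienoyl-CoA isomerase Ech1 (log2 -2.09 ± 0.16, edgeR adjusted p = 3.36e-09). The 3 largest increases were in the transporter Slc27a6 (log2 2.84 ± 0.50, edgeR adjusted p = 6.73e-05), which stood near 1 CPM at 72 h, the carrier Fabp5 (log2 2.76 ± 0.13, edgeR adjusted p = 9.39e-12) and the droplet coat protein Plin2 (log2 2.15 ± 0.33, edgeR adjusted p = 4.24e-05). Fabp5 held 41.2, 29.5 and 39.5 CPM in sham and 239.6, 239.7 and 269 CPM at 72 h, and Plin2 53.7, 54.3 and 54.9 and 215, 236 and 272 CPM. Both lay above every sham library.

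Of 12 regulators of the pathway, 2 rose and 1 fell at 6 h (16.7% and 8.33%, near the 16.3% and 12.2% of all genes). At 24 h 1 rose and 4 fell (8.33% and 33.3%, against 23.7% and 20.2%), and at 72 h 1 rose and 9 fell (8.33% and 75%, against 34.2% and 32.2%). Ppargc1a, which encodes PGC-1alpha, went from 73.2, 74.9 and 74.9 CPM in sham to 23.9, 18.1 and 20.6 CPM at 72 h (log2 -1.84 ± 0.21, edgeR adjusted p = 8.00e-07). Ppara, which encodes PPAR-alpha, went from 18.5, 23.1 and 22.4 to 8.01, 7.09 and 7.13 CPM (log2 -1.52 ± 0.29, edgeR adjusted p = 2.47e-04), and Lpin1, a phosphatase that also acts with PGC-1alpha, fell as well (log2 -1.53 ± 0.25, edgeR adjusted p = 5.95e-05). The AMP-activated kinase subunit Prkaa1 was the gene that rose at 72 h (log2 0.58 ± 0.13, edgeR adjusted p = 9.22e-04). At 6 h neither Ppara (log2 -0.06, edgeR adjusted p = 0.906) nor Ppargc1a (log2 -0.24, edgeR adjusted p = 0.393) passed the test. Pparg, named here after its values were seen, was higher at 6 h (log2 1.00 ± 0.14, edgeR adjusted p = 6.23e-05).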

How the data were processed

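The authors deposited read counts per Ensembl gene and FPKM (fragments scaled to gene length and library size) for each of 18 libraries. Per the submitters' processing notes, cutadapt 1.18, HISAT2 2.1.0 and featureCounts were used with the build mm10; the annotation and strand setting are not given in the sources used here. The deposited FPKM are the counts divided by gene length and library total. At 6 h, the FPKM of replicate 2 were made from the counts of replicate 3, and the reverse. Whether the FPKM or the counts carry the exchanged labels is not known. The replicate numbers used here are those of the counts as deposited. FPKM served for gene lengths and 2 alternative tests.

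The deposited counts went into edgeR 4.0.16 (R 4.3.3): filterByExpr (14272 genes removed, 16311 kept), TMM scaling, and a robust quasi-likelihood fit of 1 mean per group to all 18 libraries. Two-sided p-values were adjusted by the Benjamini-Hochberg method over all genes tested, and a gene was called under 0.05. Contrasts were each time against sham and against the preceding time. Levels are TMM-scaled CPM; log2 fold changes carry standard errors. Symbols and coordinates are from GENCODE M21 (GRCm38), RefSeq promoters from GRCm38.p6. Tested on simulated counts of 16311 genes for 24 h against sham, the fit recovered 35 of 68 genes changed by 0.6 (log2), 58 of 66 changed by 1 and 65 of 66 changed by 2, with 8 of 166 calls false. Only these genes were changed there, equally in both directions, where 43.8% of all genes were called at 24 h in the data. The rates may therefore not hold for the data. Library totals ran from 18199172 to 25062351 counts.

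Named by rule were the 3 largest called increases and decreases at 6, 24 and 72 h, the smallest p at 10 min and 1 h, paralogs, and members called in opposite directions; for the wider lists, the 3 largest at 72 h, of which 1 is not reported here. Members and lists were chosen with earlier results of these data known. Alternatives were other scaling (RLE, library totals) and filters (none, or 10 counts in every library), a replicate block, only the groups compared, DESeq2 1.42.0, limma 3.58.1 on log2(FPKM + 1) or log2(FPKM + 0.1), and leaving out each library.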

Additional observations from a re-analysis of the deposited data

Results flagged for a closer look

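In 5 of the 39 genes (12.8%, where 1.47% of all genes tested did the same) the change against sham differed between 6 h and 24 h by the test of that difference, with a call above sham at 6 h and a call below sham at a later time. These genes were picked by that pattern, and the 24 h against 6 h comparison uses the same 6 h libraries, so its values are a description. The edgeR log2 difference between 24 h and 6 h was -0.76 for Cd36 (adjusted p = 0.00154), -0.97 for Fabp4 (adjusted p = 1.43e-05), -1.66 for Ucp3 (adjusted p = 0.0203), -0.91 for Pnpla2 (adjusted p = 0.00349) and -1.34 for Plin5 (adjusted p = 4.65e-04). Cd36, Fabp4, Ucp3 and Pnpla2 were called below sham at 72 h and Plin5 at 24 h and 72 h. In Cd36, Fabp4, Ucp3, Pnpla2 and Plin5 all 3 libraries at 24 h lay below all 3 at 6 h. The same held for 31 of the 39 members and for 2510 of the 16311 genes tested, so it does not set these 5 apart from the other members. With only the 6 h and 24 h libraries in the fit, Fabp4, Ucp3 and Plin5 kept the call and Cd36 and Pnpla2 did not. The call for Ucp3 was also lost without replicate 2 or 3 at 6 h and without replicate 2 at 24 h.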

How the results depend on the processing

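Of 179 calls of single genes, 119 kept their direction and their call under every alternative tried, 59 lost the call under at least 1, and 1 reversed: Acaa1a at 72 h stood at 0.0381 with library total scaling and at 0.0280 and 0.0290 with limma on log2(FPKM + 1) and log2(FPKM + 0.1). The count of members called moved to 1 at 10 min and 1 at 1 h with only the groups compared, to 2 at 10 min with DESeq2, to 5 at 6 h with no filter on low counts, and, for 24 h against 6 h, to 4 with only the groups compared and 19 with limma on log2(FPKM + 1). Leaving out each library in turn gave 0 to 1 at 1 h (1 without replicate 3 at 24 h), 5 to 9 at 6 h (5 without sham replicate 1 or 2) and, for 6 h against 1 h, 3 to 6 (3 without replicate 2 or 3 at 1 h). The median of the members at 1 h ranged from 0.0266 (without sham replicate 3) to 0.0831. At 6 h the median was -0.0779 with library total scaling and -0.0840 and -0.0851 with limma on log2(FPKM + 1) and log2(FPKM + 0.1); at 72 h it was -1.13, -1.09 and -1.14. The difference from the median of all genes was -1.74 at 72 h with TMM, RLE and library total scaling. Same-numbered libraries showed little shared deviation: 4 of 45 pairs had a correlation over 0.1. These correlations ran from -0.26 to 0.25 (median 0.04), with a median of -0.01 for different numbers. The numbers were not treated as pairs, though weak correlations among 3 mice per group cannot exclude pairing. With the replicate block the counts were 7 at 6 h, 30 at 24 h, 39 at 72 h, 33 for 24 h against 6 h and 35 for 72 h against 24 h. Depth limits Acad10, Acsl3, Cpt1b and sham Angptl4 most, all near or under 10 CPM.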

Other observations

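Of the 42 further genes of fatty acid handling, 9 were called higher and 4 lower than sham at 6 h (21.4% and 9.52%). Over all genes tested the shares were 16.3% and 12.2%. The genes below were named after their values were seen, and the 4 that were lower are not named. Pdk4, the kinase that shuts pyruvate dehydrogenase and so favours fatty acid use, had 167, 133 and 106 CPM in sham replicates 1 to 3, 204, 535 and 767 CPM at 10 min and 2370.2, 2210.3 and 2949.9 CPM at 6 h (log2 4.21 ± 0.56, edgeR adjusted p = 1.49e-04). Its 10 min libraries stood in the order seen for Ucp3, Angptl4 and Cpt1a. By 72 h it was at 70.1, 60.01 and 60.5 CPM, below every sham library but not called (edgeR adjusted p = 0.0703). Hilpda, a small droplet protein that inhibits the lipase Pnpla2, had 4.15, 4.62 and 4.80 CPM in sham, 29.7, 20.9 and 20.98 CPM at 6 h (log2 2.40 ± 0.57, edgeR adjusted p = 0.00723) and 17.4, 7.57 and 65.7 CPM at 24 h, where replicate 3 was highest, as for Angptl4 and Plin2. Gpihbp1, which holds lipoprotein lipase on capillary endothelium, rose at 6 h (log2 0.88 ± 0.12, edgeR adjusted p = 4.39e-05) and fell at 72 h (log2 -1.09 ± 0.12, edgeR adjusted p = 2.41e-07), while Lpl, the lipase itself, was not called at 6 h (log2 0.29, edgeR adjusted p = 0.188) and went from 5416, 5186 and 4854 CPM in sham to 1517, 1295 and 1323 CPM at 72 h (log2 -1.90 ± 0.17, edgeR adjusted p = 1.61e-08). Lipe and Plin4, a hormone-sensitive lipase and a droplet coat protein, were higher at 6 h (log2 0.95 and 1.47) and lower at 72 h (log2 -1.04 and -1.71), all 4 values called.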
